A study of Mus musculus with 8 samples.

Results

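The genes described here are 47 genes of mitosis and the kinetochore, named by symbol, with known roles in chromosome condensation, mitotic entry, spindle assembly, the kinetochore, the spindle checkpoint, anaphase and cytokinesis. A probe set annotated to that gene alone was on the array for 45 of the 47, among 12393 genes measured in all. Ccnb1 and Cdca8 were not analysed here. RNA came from the ventral prostate of male FVB mice aged 8 weeks. There were 4 arrays from mice carrying a polyoma virus middle T antigen transgene, called MT below, and 4 from wild-type mice. Middle T is a viral membrane-bound oncoprotein that recruits Src family kinases and phosphatidylinositol 3-kinase. The promoter that drives the transgene, the number of founder lines and any pooling of animals are not given in the sources used here. Nothing in the labels ties each array to its own animal. The p-values therefore describe variation among these 8 arrays, some of which could be technical.

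In mitosis, cyclin-dependent kinase 1 with its cyclins drives chromosome condensation and spindle assembly, and kinetochores attach each chromosome to spindle microtubules. The spindle checkpoint holds back the anaphase-promoting complex until all chromosomes are attached, after which cyclins and securin are destroyed and the cell divides. Many of these genes are transcribed mainly in G2 and mitosis, so in a whole tissue their RNA is widely used as a sign of dividing cells, which are few in the resting adult prostate.

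Most of the mitosis and kinetochore genes were higher in MT prostates. Of the 45 measured, 36 were higher, 2 were lower and 7 did not pass (limma, Benjamini-Hochberg adjusted p under 0.05), while over all genes 19.7% were higher and 21.3% lower. All 4 MT values lay above all 4 wild-type values for 36 genes, which was so for 19.7% of all genes, and below them for 1, which was so for 20.4%. A fitted rise of at least 2-fold was called for 19 of the 45, against 2.83% of all genes, and for 18 with Ect2 at its bound. The median log2 difference, MT minus wild type, was 0.86 over the 45 genes and -0.01 over all genes. Cenpe, Nuf2, Kif20a and Ect2 were called higher but were no higher on any wild-type array than the highest of 12 redesigned bacterial control probe sets, which have no target in mouse RNA. The differences of Nuf2, Kif20a and Ect2 have only lower bounds, and that of Cenpe has no bound. With those genes at their bounds and Cenpe set to no difference, the median was again 0.86. The other 32 genes called higher rose by 0.33 to 2.43 on the log2 scale, and adjusted p-values of the 36 ran from 1.14e-07 to 0.0102. In bulk tissue, more cells of a dividing type and more RNA per cell cannot be told apart, nor can fewer cells and less RNA.

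The mean log2 level of the 45 genes was 6.24, 6.17, 6.18 and 6.26 on MT arrays 1 to 4, against 5.28, 5.39, 5.35 and 5.39 on wild-type arrays 1 to 4. The groups averaged 6.21 ± 0.04 in MT and 5.35 ± 0.05 in wild type (SD, n = 4 arrays each) and did not overlap. Leaving out any 1 array left 36 or 37 genes higher. Among the 36 genes that rose, MT array 4 was the highest MT array for 17, MT array 1 for 10, MT array 3 for 7 and MT array 2 for 2.

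**Figure D1:**
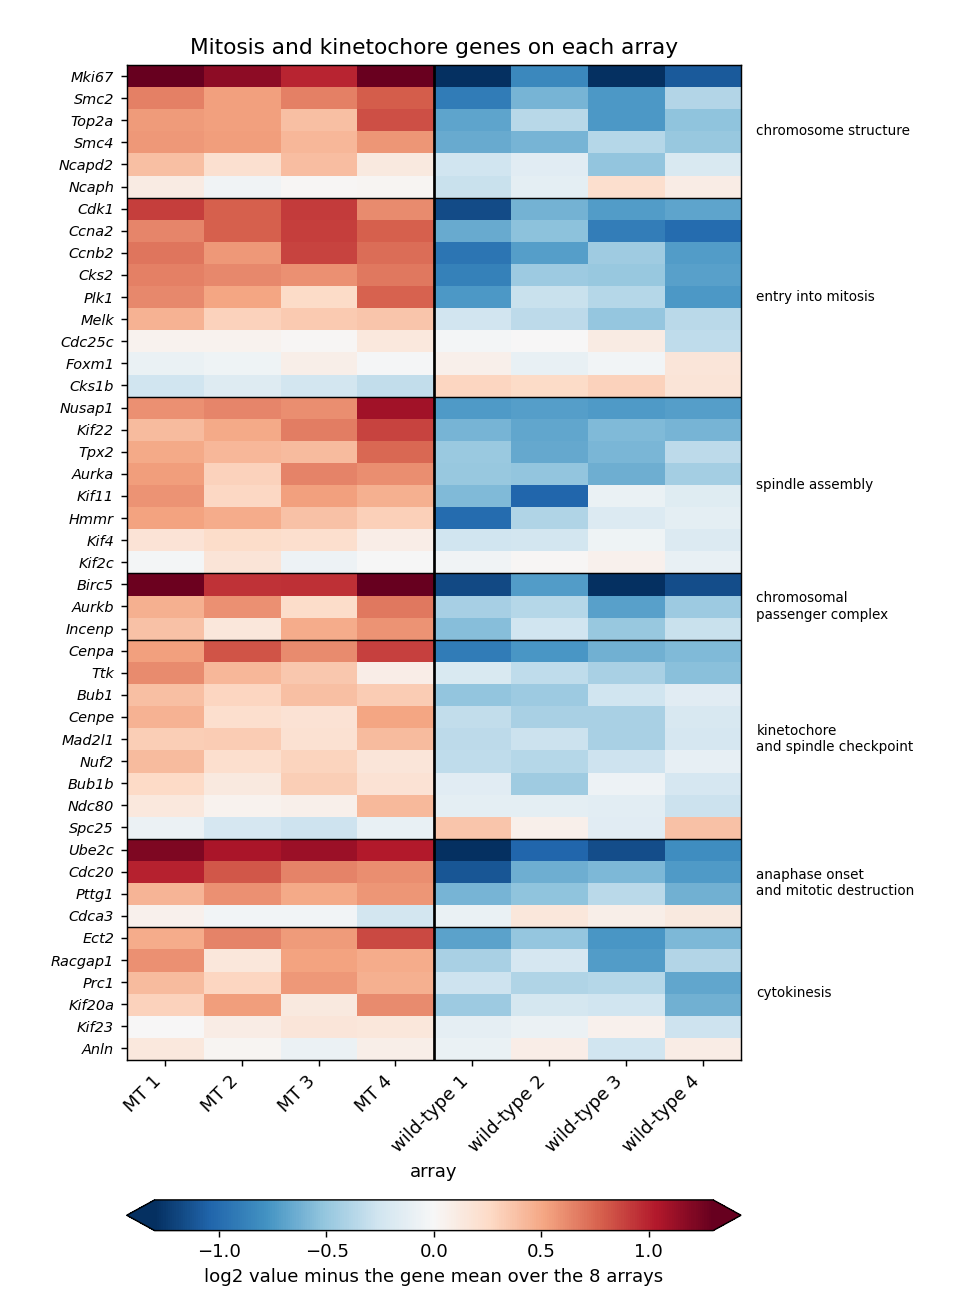
Heat map of the 45 measured genes (rows, grouped by role) on the 4 MT and 4 wild-type arrays (columns); colour is the log2 value minus the gene's mean over the 8 arrays, on a scale that ends beyond the darkest tick marks. For 36 genes every MT array is higher than every wild-type array, and Cks1b shows the opposite.

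**Figure D2:**
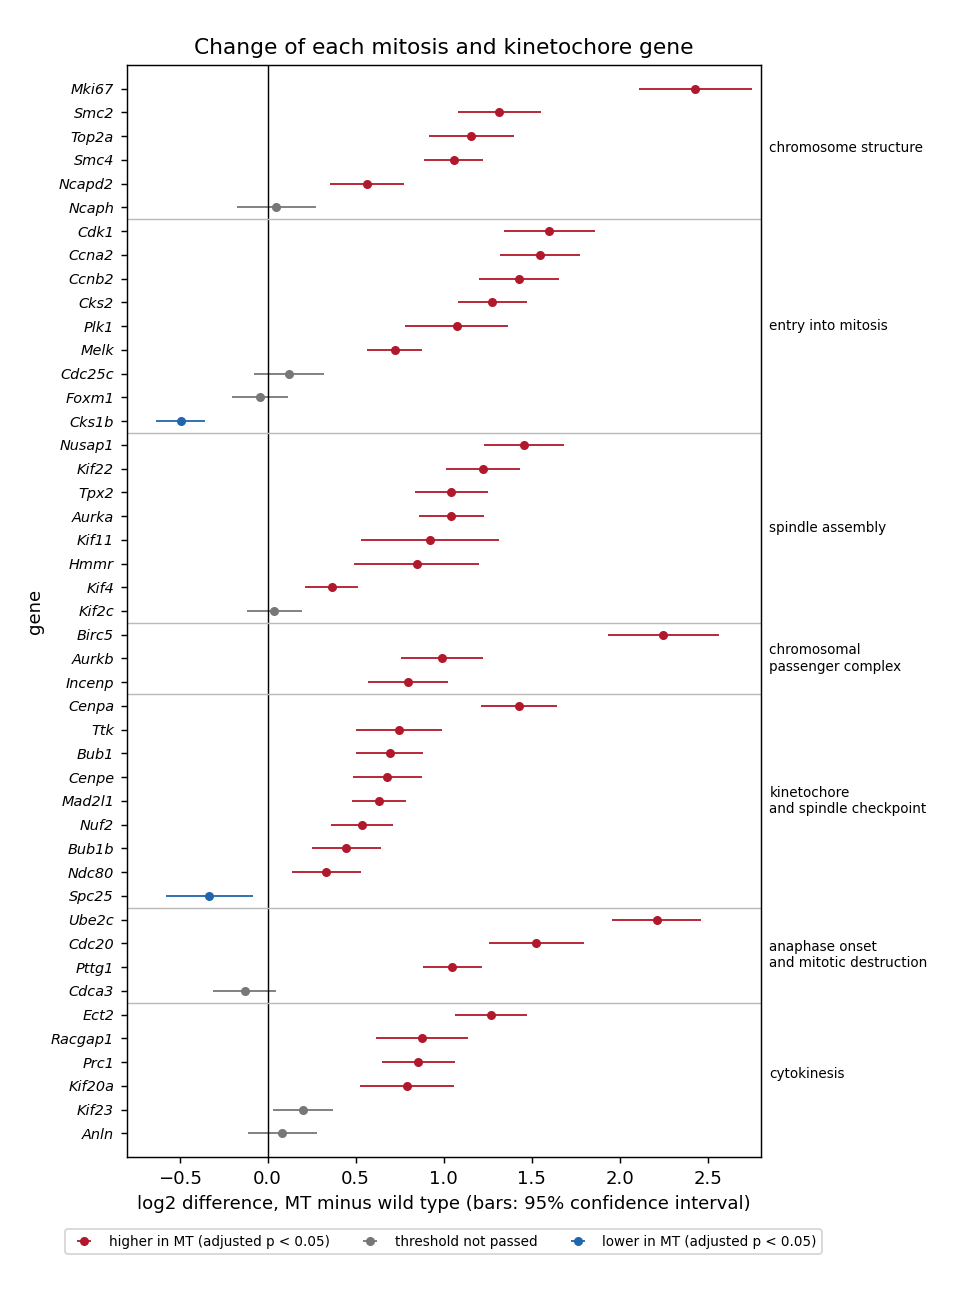
Fitted log2 difference, MT minus wild type, of each of the 45 genes by role, with its 95% confidence interval as a bar; red is higher, blue lower and grey not passed at an adjusted p of 0.05. Red points run from 0.33 (Ndc80) to 2.43 (Mki67), and the 2 blue points are Cks1b and Spc25. The points of Cenpe, Nuf2, Kif20a and Ect2 rest on wild-type values no higher than the bacterial controls.

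The 3 largest rises belonged to 3 different steps of mitosis. Mki67, whose protein Ki-67 coats mitotic chromosomes and keeps them apart, had log2 values of 8.08, 7.82, 7.64 and 7.95 in MT, against 5.27, 5.82, 5.11 and 5.57 in wild type. Its log2 difference was 2.43 ± 0.15 (SE), a 5.39-fold rise (limma adjusted p = 3.33e-07). The lowest MT array stood well above the highest wild-type array. Birc5, which encodes the chromosomal passenger protein survivin, had 7.05, 6.72, 6.72 and 7.10 in MT, against 4.60, 5.05, 4.33 and 4.62 in wild type. Its difference of 2.25 ± 0.14 was a 4.75-fold rise (adjusted p = 4.81e-07), again with no overlap. Ube2c, the ubiquitin-conjugating enzyme that works with the anaphase-promoting complex, had 6.91, 6.75, 6.81 and 6.73 in MT, against 4.26, 4.66, 4.55 and 4.89 in wild type. Its difference of 2.21 ± 0.12 was a 4.63-fold rise with the lowest adjusted p of the 45 genes (1.14e-07). The MT arrays lay within a narrow band, while the wild-type arrays were spread more widely.

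**Figure D3:**
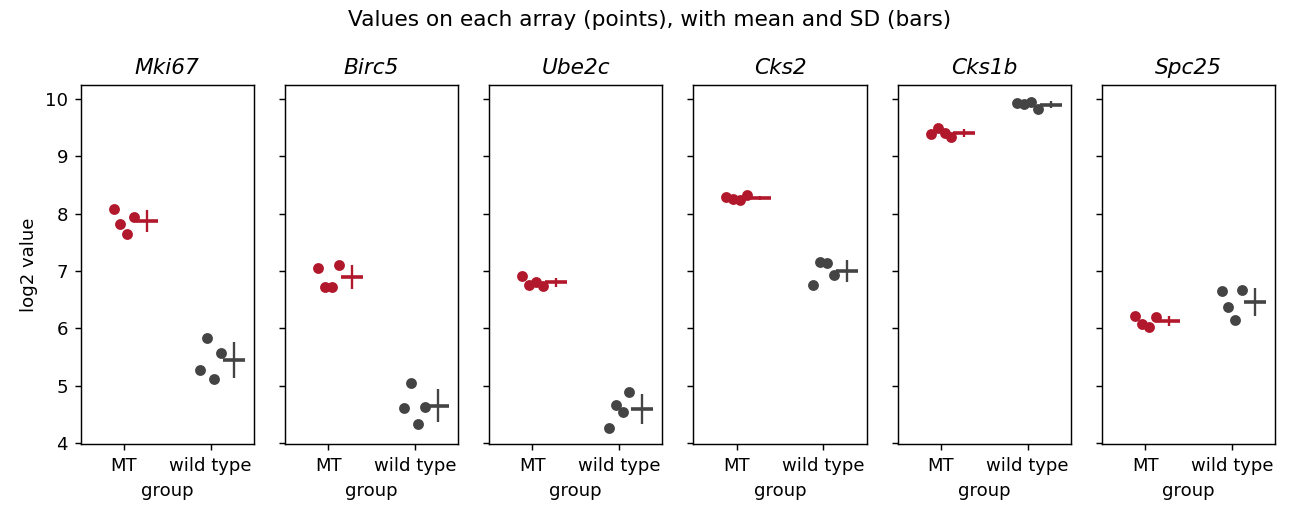
Log2 value (vertical axis) of Mki67, Birc5, Ube2c, Cks2, Cks1b and Spc25 on each array, MT in red to the left of wild type in grey; points are arrays, horizontal bars the mean and vertical bars the SD of 4 arrays. The first 4 genes are higher on every MT array, Cks1b is lower on every MT array, and the Spc25 groups overlap.

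Genes of this kind are known to be switched by 2 short promoter elements, the CHR (TTTGAA), bound by the MuvB complex, and the CCAAT box (CCAAT), bound by NF-Y, so the promoter windows were searched for these letters on both strands. Windows of 250 bases before to 50 bases after the transcription start, from RefSeq on GRCm38.p6, were used for 39 of the 47 genes. The 8 without one were Cdc25c, Ccna2, Smc4, Incenp, Kif20a, Foxm1, Tpx2 and Aurkb. A CHR was present in 28 of the 39 genes (71.8%), against 17.9% of all 32851 windows of the same length and 15.4% of the 9887 measured genes with a window. A CCAAT box was present in 29 of 39 (74.4%), against 37.4% of all windows and 42.3% of measured genes. Both motifs were present in 25 of 39 (64.1%), against 6.95% of all windows and 6.02% of measured genes. An E2F site (TTTCCCGC, TTTGGCGC, TTTCGCGC or TTTGCCGC) was present in 2 of 39 (5.13%), against 2.26% of all windows and 4.07% of measured genes. Motifs of different kinds overlapped in 1 window. A letter match describes the sequence and is not evidence of binding.

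The windows of the 3 genes with the largest rises are printed 5′ to 3′ along the gene, with CHR and CCAAT letters in capitals on either strand (reverse complements TTCAAA and ATTGG).
Mki67, chr7:135716330-135716629, minus strand: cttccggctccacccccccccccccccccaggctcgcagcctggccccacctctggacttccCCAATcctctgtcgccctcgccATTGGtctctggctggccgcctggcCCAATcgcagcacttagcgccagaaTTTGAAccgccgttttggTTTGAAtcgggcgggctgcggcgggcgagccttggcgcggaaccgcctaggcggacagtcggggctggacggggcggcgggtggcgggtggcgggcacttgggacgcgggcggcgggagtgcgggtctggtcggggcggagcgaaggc
Birc5, chr11:117848987-117849286, plus strand: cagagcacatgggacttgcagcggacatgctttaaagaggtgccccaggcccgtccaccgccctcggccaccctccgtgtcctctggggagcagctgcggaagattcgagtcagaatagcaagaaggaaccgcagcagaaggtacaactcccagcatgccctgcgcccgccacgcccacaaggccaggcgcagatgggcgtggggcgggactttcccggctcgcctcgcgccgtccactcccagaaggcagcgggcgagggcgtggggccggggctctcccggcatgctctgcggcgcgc
Ube2c, chr2:164769679-164769978, plus strand: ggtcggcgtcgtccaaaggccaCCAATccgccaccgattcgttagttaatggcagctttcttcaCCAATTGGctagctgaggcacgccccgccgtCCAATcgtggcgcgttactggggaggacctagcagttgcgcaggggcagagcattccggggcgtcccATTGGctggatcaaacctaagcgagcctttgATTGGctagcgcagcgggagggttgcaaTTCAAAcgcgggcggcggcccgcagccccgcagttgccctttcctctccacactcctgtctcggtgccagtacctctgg
The Mki67 window held 2 CHR motifs, beginning at positions -116 and -98 from the transcription start, downstream of 3 CCAAT boxes. The Ube2c window held 1 CHR, at -29, and 6 CCAAT boxes, of which those at -186 and -183 overlap on opposite strands. The Birc5 window held none of the CHR or CCAAT letters. A CHR was present in 21 of the 30 genes called higher that had a window (70%), and in 6 of 7 that were not called higher (85.7%). A CCAAT box was present in 23 of 30 (76.7%) and in 4 of 7 (57.1%), a difference that was not tested. The calls are those of the probe set with the highest mean level. Among the 7, Kif2c and Cdca3 had other probe sets that were called higher.

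Chromosome structure genes rose in 5 of 6 cases, with a median log2 difference of 1.11. Smc2, an ATPase core subunit of condensin, had 6.45, 6.34, 6.46 and 6.59 in MT, against 4.89, 5.20, 5.06 and 5.42 in wild type. Its difference was 1.32 ± 0.11 (2.49-fold, adjusted p = 2.59e-06), and the groups did not overlap. Its partner core subunit Smc4 rose by 1.06 ± 0.08 (2.08-fold, adjusted p = 1.12e-06). Top2a, the topoisomerase that untangles sister DNAs, had 7.23, 7.22, 7.07 and 7.52 in MT, against 5.99, 6.32, 5.93 and 6.16 in wild type. That is a difference of 1.16 ± 0.11 (adjusted p = 8.78e-06), with no overlap. A second, dimmer Top2a probe set, the one of unique type, showed no called difference (-0.09, adjusted p = 0.484), and the mean over both gave 0.54. Ncapd2, a regulatory subunit of condensin I, rose by 0.56 ± 0.10 (adjusted p = 0.000642).

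One condensin I subunit did not pass. Ncaph, the kleisin that closes the condensin I ring, had 8.58, 8.44, 8.49 and 8.50 in MT, against 8.19, 8.35, 8.70 and 8.58 in wild type, so the groups overlapped. Its difference of 0.05 (95% confidence interval -0.18 to 0.28) did not pass (adjusted p = 0.734). Neither of its 2 probe sets passed.

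Of the 9 measured genes of entry into mitosis, 6 rose, 1 fell and 2 did not pass, with a median of 1.07. Cdk1, the kinase that drives mitotic entry, had 8.49, 8.37, 8.49 and 8.21 in MT, against 6.43, 6.97, 6.86 and 6.90 in wild type. The difference was 1.60 ± 0.12, a 3.03-fold rise (adjusted p = 1.3e-06). Ccna2, the cyclin A of somatic cells, had 6.90, 7.04, 7.16 and 7.05 in MT, against 5.61, 5.73, 5.37 and 5.26 in wild type. It rose by 1.55 ± 0.10 (2.92-fold, adjusted p = 6.7e-07). Ccnb2, a B-type cyclin, had 6.19, 6.06, 6.37 and 6.23 in MT, against 4.54, 4.78, 5.04 and 4.77 in wild type. It rose by 1.43 ± 0.10 (2.69-fold, adjusted p = 1.2e-06). The kinase and both of its measured cyclins thus rose without overlap between groups. Plk1, the polo-like kinase that acts throughout mitosis, rose 2.11-fold (1.07 ± 0.13, adjusted p = 6.88e-05), and Melk, a kinase found in dividing cells, rose by 0.72 ± 0.07 (adjusted p = 1.13e-05). Melk was no higher than the bacterial controls on 2 wild-type arrays, so its rise is uncertain in size.

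The small subunits that bind cyclin-dependent kinases moved in opposite directions. Cks2 had 8.30, 8.26, 8.23 and 8.32 in MT, against 6.76, 7.16, 7.14 and 6.93 in wild type. It rose by 1.28 ± 0.09 (2.42-fold, adjusted p = 9.69e-07). Cks1b, which also helps the Skp2 ubiquitin ligase recognise the inhibitor p27, had 9.40, 9.49, 9.42 and 9.34 in MT, against 9.93, 9.91, 9.95 and 9.82 in wild type. Its difference was -0.49 ± 0.06 (adjusted p = 8.41e-05), so its level was 1.41-fold higher in wild type, with no overlap. The second Cks1b probe set was also lower in MT (-0.28 ± 0.08, adjusted p = 0.0194). The second Cks2 probe set was also higher, by 1.20. The promoter windows of the pair, shown because they move in opposite directions, read as follows with the same capitals.
Cks2, chr13:51644982-51645281, plus strand: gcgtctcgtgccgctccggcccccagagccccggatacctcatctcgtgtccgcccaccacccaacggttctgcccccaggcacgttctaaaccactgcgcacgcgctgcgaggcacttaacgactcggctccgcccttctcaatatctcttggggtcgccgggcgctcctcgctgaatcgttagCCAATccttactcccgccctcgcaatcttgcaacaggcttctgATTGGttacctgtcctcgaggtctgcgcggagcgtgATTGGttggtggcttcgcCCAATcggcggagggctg
Cks1b, chr3:89418242-89418541, minus strand: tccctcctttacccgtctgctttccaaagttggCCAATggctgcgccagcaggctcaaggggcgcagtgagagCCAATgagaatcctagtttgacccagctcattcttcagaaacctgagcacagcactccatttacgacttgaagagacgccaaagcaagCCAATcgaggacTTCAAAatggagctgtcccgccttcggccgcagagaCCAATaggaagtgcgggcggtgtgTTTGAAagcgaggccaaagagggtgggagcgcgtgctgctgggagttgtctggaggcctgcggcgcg
The Cks1b window, of the gene that fell, held 2 CHR motifs and 4 CCAAT boxes, while that of Cks2, which rose, held 4 CCAAT boxes and no CHR.

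Neither Foxm1 nor Cdc25c passed by the probe set with its highest mean level. Foxm1, the transcription factor that activates many G2 and mitosis genes, had 6.93, 6.97, 7.10 and 7.01 in MT, against 7.08, 6.93, 6.98 and 7.18 in wild type. The groups overlapped, with a difference of -0.04 (95% confidence interval -0.20 to 0.12, adjusted p = 0.684). Its 4 probe sets did not act alike. One, at 4.99 ± 0.24 in MT and 4.39 ± 0.12 in wild type (SD, n = 4 each), was higher by 0.60 ± 0.11 (adjusted p = 0.00156), and the others did not pass. Cdc25c, a phosphatase that activates Cdk1, had 3.60, 3.60, 3.58 and 3.70 in MT, against 3.54, 3.56, 3.67 and 3.23 in wild type, and did not pass (adjusted p = 0.324). On 2 MT and 3 wild-type arrays it was no higher than the bacterial controls.

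Spindle assembly genes rose in 7 of 8 cases, with a median of 0.98. Nusap1, which bundles spindle microtubules, had 6.10, 6.14, 6.11 and 6.59 in MT, against 4.77, 4.78, 4.76 and 4.79 in wild type. It rose by 1.46 ± 0.10 (2.74-fold, adjusted p = 1.04e-06). The wild-type arrays were almost equal, and MT array 4 stood above the other MT arrays. A second, dim Nusap1 probe set was called lower (-0.36 ± 0.11, adjusted p = 0.0277), the one gene of the 45 with probe sets called in opposite directions, and the mean over both gave 0.55. Kif22, a chromokinesin that moves chromosome arms, had 6.54, 6.63, 6.80 and 7.02 in MT, against 5.53, 5.46, 5.56 and 5.53 in wild type. It rose by 1.22 ± 0.10 (2.34-fold, adjusted p = 2.08e-06), with no overlap. Its unique-type probe set was higher by 0.48.

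The mitotic kinase Aurka and its activator Tpx2 both rose. Tpx2 had 5.16, 5.10, 5.08 and 5.42 in MT, against 4.18, 4.00, 4.07 and 4.33 in wild type, a difference of 1.04 ± 0.09 (adjusted p = 6.48e-06). Aurka had 6.19, 5.94, 6.29 and 6.25 in MT, against 5.15, 5.13, 5.01 and 5.20 in wild type, a difference of 1.04 ± 0.08 (adjusted p = 2.56e-06). A second Tpx2 probe set did not pass (0.20, adjusted p = 0.155), and the mean over both gave 0.62. Kif11, the motor that pushes spindle poles apart, rose by 0.92 ± 0.18 (adjusted p = 0.00158), and Hmmr, a spindle-associated protein that also binds hyaluronan, by 0.85 ± 0.16 (adjusted p = 0.00142). Their SEs were the widest of the group. Kif11 was no higher than the bacterial controls on 1 wild-type array, and the mean over its 3 probe sets gave 0.54. The chromokinesin Kif4 rose by 0.36 ± 0.07 (adjusted p = 0.00145). Of the 4 Hmmr probe sets, 1 did not pass (0.25, adjusted p = 0.0722).

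Kif2c, which takes microtubules apart at the kinetochore, had 5.86, 6.05, 5.81 and 5.88 in MT, against 5.83, 5.90, 5.93 and 5.79 in wild type, and did not pass (0.04, 95% confidence interval -0.12 to 0.19, adjusted p = 0.712). The groups overlapped. Of its 4 probe sets, 2 dimmer ones were called higher, by 0.60 ± 0.12 (adjusted p = 0.00201) and 0.35 ± 0.11 (adjusted p = 0.0219).

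All 3 measured genes of the chromosomal passenger complex rose. This complex corrects faulty attachments and then organises cytokinesis. Beside Birc5, its kinase Aurkb had 5.24, 5.38, 5.02 and 5.47 in MT, against 4.35, 4.41, 4.07 and 4.31 in wild type. Aurkb rose by 0.99 ± 0.11 (1.99-fold, adjusted p = 2.09e-05). The scaffold Incenp had 6.49, 6.26, 6.60 and 6.70 in MT, against 5.56, 5.85, 5.62 and 5.83 in wild type, and rose by 0.80 ± 0.10 (adjusted p = 9.91e-05). No groups overlapped in this complex. Other probe sets of Aurkb (0.17, adjusted p = 0.0846) and Incenp (0.15, adjusted p = 0.157) did not pass, and another of Incenp was higher by 1.64 ± 0.09 (adjusted p = 2.15e-07). The mean over both Aurkb probe sets gave 0.58.

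Of the 9 genes of the kinetochore and spindle checkpoint, 8 were called higher and 1 lower, with a median of 0.63, or 0.45 with Cenpe at 0 and Nuf2 at its bound. Cenpa, the histone variant that marks centromeres, had 5.85, 6.13, 5.93 and 6.20 in MT, against 4.40, 4.56, 4.69 and 4.74 in wild type. It rose by 1.43 ± 0.10 (2.69-fold, adjusted p = 8.59e-07) and was the one gene of the group with a rise of at least 2-fold. The checkpoint kinase Ttk had 5.53, 5.34, 5.26 and 5.0 in MT, against 4.71, 4.57, 4.49 and 4.36 in wild type, a rise of 0.75 ± 0.11 (adjusted p = 0.000281). The checkpoint kinase Bub1 had 4.73, 4.62, 4.73 and 4.67 in MT, against 3.83, 3.87, 4.08 and 4.19 in wild type, a rise of 0.69 ± 0.09 (adjusted p = 7e-05). All 4 checkpoint genes rose without overlap. Mad2l1, which inhibits Cdc20, rose by 0.63 ± 0.07 (adjusted p = 3.01e-05), and its partner Bub1b by 0.45 ± 0.09 (adjusted p = 0.00189). A second Bub1 probe set was no higher than the bacterial controls on all 8 arrays, and the mean over both gave 0.31. The Bub1 probe set with the higher mean was no higher than the controls on 1 wild-type array.

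The Ndc80 complex, which grips microtubules, was split. Its subunit Ndc80 had 4.57, 4.48, 4.50 and 4.85 in MT, against 4.31, 4.31, 4.30 and 4.15 in wild type, and rose by 0.33 ± 0.09 (adjusted p = 0.0102). Nuf2 had 3.86, 3.67, 3.73 and 3.60 in MT, against 3.12, 3.08, 3.18 and 3.34 in wild type, and was called higher (adjusted p = 0.000275). It was no higher than the bacterial controls on any wild-type array and on 1 MT array, so its level is given only as at least 1.03-fold higher. Cenpe, a kinetochore motor, averaged 3.61 ± 0.16 in MT and 2.93 ± 0.10 in wild type (SD, n = 4 each) and was called higher (adjusted p = 0.000103). It lay no higher than the controls on 2 MT and all 4 wild-type arrays, so no size is given.

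Spc25, the other measured subunit of the Ndc80 complex, had 6.21, 6.08, 6.03 and 6.19 in MT, against 6.65, 6.36, 6.15 and 6.67 in wild type. Wild-type array 3 fell within the MT range. The difference was -0.33 ± 0.11 (95% confidence interval -0.58 to -0.08, adjusted p = 0.0346). The call was lost without wild-type array 1 or 4, or without MT array 2, 3 or 4 (adjusted p = 0.0531 to 0.0936). The second Spc25 probe set did not pass (-0.20, adjusted p = 0.0725). Its window is shown because its gene was called lower while Ndc80 and Nuf2 were called higher.
Spc25, chr2:69206164-69206463, minus strand: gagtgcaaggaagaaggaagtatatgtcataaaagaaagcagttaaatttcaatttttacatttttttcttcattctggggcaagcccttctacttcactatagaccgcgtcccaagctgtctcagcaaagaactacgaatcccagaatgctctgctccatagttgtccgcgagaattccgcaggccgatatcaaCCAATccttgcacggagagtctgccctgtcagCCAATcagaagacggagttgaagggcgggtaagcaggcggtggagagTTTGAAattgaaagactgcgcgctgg
It held a CHR 25 bases after the start and 2 CCAAT boxes, at -55 and -23.

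Of the 4 genes of anaphase onset and mitotic destruction, 3 rose, with a median of 1.29, and Ube2c rose most. Cdc20, the activator of the anaphase-promoting complex that the checkpoint inhibits, had 7.49, 7.29, 7.13 and 7.09 in MT, against 5.38, 5.85, 5.91 and 5.75 in wild type. It rose by 1.53 ± 0.12 (2.88-fold, adjusted p = 2.66e-06). Its other probe sets were higher by 1.00 and 0.26. Pttg1, which encodes the separase inhibitor securin, had 8.47, 8.62, 8.52 and 8.60 in MT, against 7.42, 7.51, 7.68 and 7.40 in wild type. It rose by 1.05 ± 0.08 (2.07-fold, adjusted p = 1.2e-06), with no overlap. A dimmer Pttg1 probe set did not pass (0.05, adjusted p = 0.641).

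Cdca3, which targets the mitotic inhibitor Wee1 for destruction, had 6.02, 5.93, 5.93 and 5.72 in MT, against 5.88, 6.11, 6.04 and 6.09 in wild type. The groups overlapped, and its difference of -0.13 (95% confidence interval -0.31 to 0.05) did not pass (adjusted p = 0.238). Another Cdca3 probe set read 6.05 ± 0.09 in MT and 4.88 ± 0.21 in wild type (SD, n = 4 each), higher by 1.17 ± 0.10 (adjusted p = 5.44e-06). The answer for Cdca3 therefore rested on which probe set was read.

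Cytokinesis genes were called higher in 4 of 6 cases, with a median of 0.82, or 0.76 with Ect2 and Kif20a at their bounds. Ect2, which activates RhoA at the cleavage plane, had 4.46, 4.63, 4.53 and 4.84 in MT, against 3.28, 3.48, 3.22 and 3.40 in wild type. It was no higher than the controls on any wild-type array, and its level was at least 1.93-fold higher in MT (adjusted p = 1.18e-06). Racgap1, which forms the centralspindlin complex with Kif23, had 6.37, 5.93, 6.30 and 6.26 in MT, against 5.35, 5.55, 5.05 and 5.39 in wild type, a rise of 0.88 ± 0.12 (adjusted p = 0.000134). Prc1, which cross-links midzone microtubules, had 6.21, 6.07, 6.36 and 6.25 in MT, against 5.52, 5.41, 5.42 and 5.12 in wild type, a rise of 0.86 ± 0.09 (adjusted p = 2.84e-05). None of these overlapped. Kif20a, a midzone kinesin, averaged 4.33 ± 0.23 in MT and 3.54 ± 0.19 in wild type (SD, n = 4 each). Its level was at least 1.59-fold higher in MT (adjusted p = 0.000329), since it was no higher than the controls on all 4 wild-type arrays.

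Kif23 and Anln did not pass. Kif23, the motor of centralspindlin, had 6.02, 6.12, 6.17 and 6.17 in MT, against 5.90, 5.95, 6.07 and 5.75 in wild type (0.20, 95% confidence interval 0.03 to 0.37, adjusted p = 0.0576). Kif23 did pass with array weights (0.22, adjusted p = 0.0372) and without wild-type array 3 (0.25, adjusted p = 0.0213), while the mean over its probe sets gave 0.0125. Anln, the ring scaffold anillin, had 6.91, 6.79, 6.70 and 6.85 in MT, against 6.68, 6.85, 6.51 and 6.86 in wild type (0.08, 95% confidence interval -0.11 to 0.28, adjusted p = 0.496). The groups overlapped for both genes.

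The 45 genes had 82 single-gene probe sets, of which 56 were higher, 4 lower and 22 not passed, while over all 22626 probe sets 18.1% were higher and 19.7% lower. Among the 23 genes with several probe sets, calls were alike for 11, differed for 11 and were opposite for 1. At least 1 probe set was higher for 39 genes and at least 1 was lower for 3. A total of 4 probe sets were no higher than the bacterial controls on every array, and none of them passed. For Cdc20, Kif22, Aurkb, Ncaph and Cdca3 (x type) and for Pttg1 and Prc1 (s type), the probe set with the highest mean is of a type whose probes can match other transcripts, as the array maker marks it, so signal from another transcript is possible there and was not tested.

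**Figure D4:**
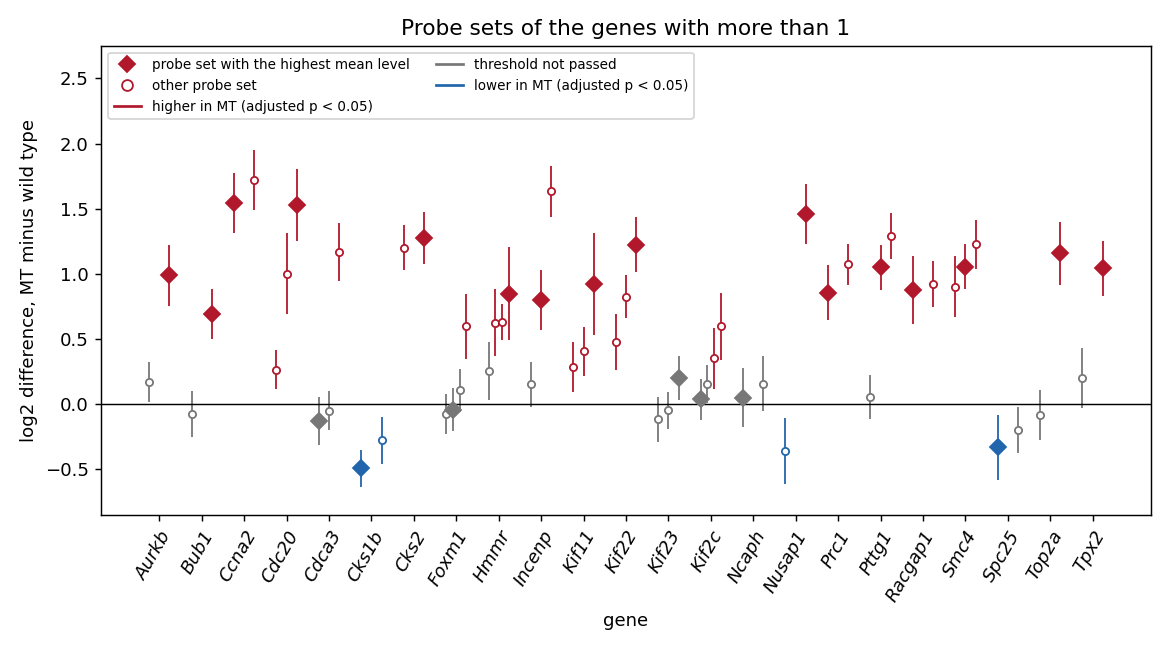
Log2 difference, MT minus wild type (vertical axis, bars 95% confidence intervals), of every probe set of the 23 genes with several; diamonds are the probe sets with the highest mean level, circles the others, and colours the call. The diamond lies farthest from its most distant circle for Nusap1 (by 1.82), Cdca3 (1.3), Cdc20 (1.26) and Top2a (1.24).

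Other genes of the same machinery were taken from further lists of known roles, to be read against the 19.7% of all genes that were higher and the 21.3% that were lower. Of 25 measured other kinetochore and centromere genes (40 listed), 13 were higher and 2 lower, with a median of 0.26. The largest rises were Cenpf, a kinetochore protein of G2 cells (1.40 ± 0.11, adjusted p = 1.53e-06), Cenpt, which links centromere to Ndc80 (1.20 ± 0.08, adjusted p = 5.01e-07), and Cenpm (0.74 ± 0.10, adjusted p = 8.68e-05). Those that fell were Cenpc1, which binds the Cenpa nucleosome (-0.61 ± 0.15, adjusted p = 0.00761), and Mis12, its partner in the outer kinetochore (-0.37 ± 0.12, adjusted p = 0.0265). The Mis12 call was lost without MT array 2, 3 or 4 (adjusted p = 0.0503 to 0.0810), which left 1 lower, and Mis12 stood at -0.25 without wild-type array 2. With probe sets averaged Cenpf was higher by 0.76.

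Of 29 measured other spindle, centrosome and cytokinesis genes (37 listed), 16 were higher and 1 lower, with a median of 0.27. Pbk, a mitotic kinase, rose by 1.92 ± 0.09 (adjusted p = 6.78e-08), Cep55, a midbody protein, by 1.37 ± 0.10 (adjusted p = 1.49e-06) and Ckap2, a spindle protein, by 1.07 ± 0.07 (adjusted p = 9.54e-07). Kif2a, a relative of Kif2c, fell (-0.52 ± 0.09, adjusted p = 0.000874). With probe sets averaged, Cep55 was higher by 0.81 and Kif2a stood at -0.24. Without wild-type array 2, 2 genes of this list were lower.

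Of 16 measured genes of the anaphase-promoting complex, with which Cdc20 and Ube2c work, and its regulators (18 listed), 3 were higher and 5 lower, with a median of 0.01. That is 18.8% higher and 31.3% lower, and the higher share is close to that of all genes. Anapc2, its cullin, rose by 0.40 (adjusted p = 0.000988), Mad2l1bp, which dismantles the checkpoint complex, by 0.31 (adjusted p = 0.0234), and the subunit Anapc7 by 0.26 (adjusted p = 0.0239). The subunits Cdc26 (-0.64 ± 0.09, adjusted p = 0.000123), Cdc16 (-0.38, adjusted p = 0.000618), Cdc23 (-0.35, adjusted p = 0.00417), Anapc13 (-0.29, adjusted p = 0.00456) and Anapc4 (-0.26, adjusted p = 0.0497) fell. The Mad2l1bp call was lost without wild-type array 1 or 4 or MT array 1 or 2 (adjusted p = 0.0552 to 0.0723), and the Anapc7 call without wild-type array 3 or MT array 1 or 2 (adjusted p = 0.0566 to 0.0721). Without MT array 1 or 2, 1 gene of the list was higher. The Anapc4 call was lost without any 1 of 6 arrays, namely wild-type 1, 2 and 4 and MT 2, 3 and 4 (adjusted p = 0.0536 to 0.138). The difference between this list and the 45 genes was not tested.

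Of 13 measured cohesin and other condensin genes (18 listed), 5 were higher and 2 lower, with a median of 0.11. Cdca5, or sororin, which protects cohesion, rose by 1.40 ± 0.10 (adjusted p = 8.09e-07), or by 0.53 with unique-type probe sets, and Ncapg, a condensin I subunit, by 1.06 ± 0.10 (adjusted p = 1.01e-05). Ncapg2, of condensin II, rose by 0.49 (adjusted p = 0.000524). The cohesin subunits Stag2 (-0.35, adjusted p = 0.0104) and Smc3 (-0.19, adjusted p = 0.0463) fell. The Smc3 call was lost without wild-type array 1, 2 or 4 or MT array 2, 3 or 4 (adjusted p = 0.0606 to 0.135), which left 1 lower.

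Of 18 measured MuvB, MYB and E2F regulators (23 listed), 4 were higher and 3 lower, with a median of 0.04. These shares (22.2% and 16.7%) are near those of all genes, and with median centring 2 were higher and 4 lower. Rbl2, the p130 pocket protein that holds these genes off in resting cells, had 7.12, 7.09, 7.28 and 7.18 in MT, against 8.30, 8.16, 8.14 and 8.32 in wild type. Its difference was -1.06 ± 0.07 (adjusted p = 6.95e-07), with no overlap. The retinoblastoma gene Rb1 (-0.46 ± 0.13, adjusted p = 0.0141) and E2f6, a repressive E2F (-0.30, adjusted p = 0.00629), also fell. With both MT array 2 and wild-type array 4 left out, Rb1 did not pass (-0.30, adjusted p = 0.0631). E2f8, a repressive E2F (0.59 ± 0.10, adjusted p = 0.000777), Nfya, a subunit of NF-Y (0.59 ± 0.11, adjusted p = 0.00123, or 0.29 with unique-type probe sets), and Mybl2, the B-Myb partner of MuvB (0.31, adjusted p = 0.0382), rose. Mybl2 stood at 0.19 without wild-type array 1. The Mybl2 call was lost without wild-type array 1 or any 1 MT array (adjusted p = 0.0507 to 0.0941), and without any 1 MT array 2 genes of the list were higher.

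Of 14 measured switches of mitotic entry (15 listed), 8 were higher and 4 lower, with a median of 0.22. With 1 array left out 6 to 8 were higher, with probe sets averaged 6 (median 0.09), and at a threshold of 0.01 5. Of the 9 kept by the level filter, 3 were higher and 4 lower, with a median of -0.04. The kinase Chek2 (0.41, adjusted p = 0.00299), the phosphatase Cdc25b (0.39, adjusted p = 0.00799) and the phosphatase inhibitor Arpp19 (0.38, adjusted p = 0.00258, or 0.18 with probe sets averaged) rose. Those that fell were Cdc25a, a phosphatase of cyclin-dependent kinases (-0.80 ± 0.08, adjusted p = 9.5e-06), and all 3 subunits of the kinase that activates Cdk1. These were Cdk7 (-0.77 ± 0.08, adjusted p = 2.29e-05, or -0.36 with unique-type probe sets), its cyclin Ccnh (-0.62 ± 0.08, adjusted p = 0.000126) and the assembly factor Mnat1 (-0.62 ± 0.07, adjusted p = 2.57e-05).

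DNA replication and G1/S genes also rose, in 25 of 39 measured cases (43 listed) with 1 lower and a median of 0.38. The largest rises were in the replicative helicase, with Mcm6 higher by 2.00 ± 0.26 (adjusted p = 9.27e-05), Mcm5 by 1.76 ± 0.11 (adjusted p = 5.63e-07) and Mcm7 by 1.51 ± 0.09 (adjusted p = 2.98e-07). Ccnd1, cyclin D1, fell (-0.46 ± 0.17, adjusted p = 0.0483), a call lost without any 1 of 7 arrays, all but wild-type array 2 (adjusted p = 0.0617 to 0.111). It stood at -0.29 without wild-type array 4.

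**Figure D5:**
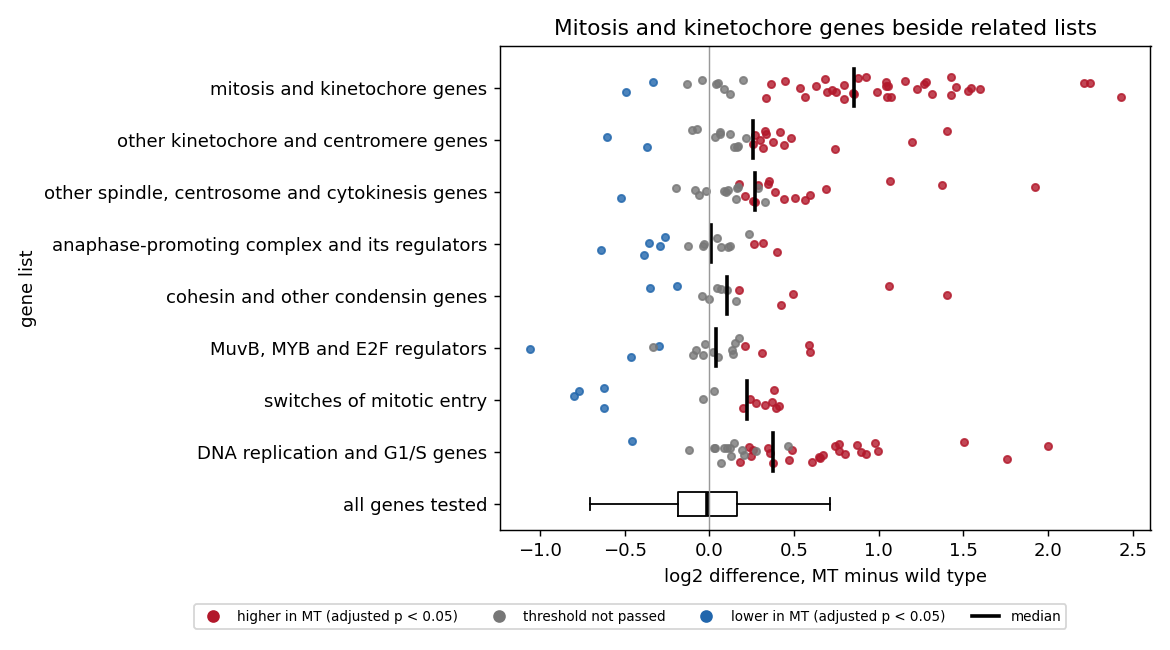
Log2 difference, MT minus wild type (horizontal axis), of each gene in the 45 mitosis and kinetochore genes and in 7 related lists, with list medians as vertical bars and a box plot of all 12393 genes at the bottom. The medians are 0.86 for the 45 genes and 0.01 to 0.38 for the related lists.

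Several lists of cell type markers differed between the groups, to be read against the 19.7% of all genes that were higher and the 21.3% that were lower. All 10 luminal epithelial markers were higher, with summed linear levels of 35318 to 38193 in MT and 18702 to 22173 in wild type. With array weights, at a threshold of 0.01, or without wild-type array 2 or 3 or MT array 1, 2 or 3, 9 were higher. In contrast, 4 of 8 prostate secretory markers were lower and 1 higher, with 7848 to 12655 in MT and 38356 to 48129 in wild type. Of the basal markers 3 of 6 were lower, and sums ran from 764 to 823 in MT and from 1080 to 1818 in wild type. All 8 smooth muscle markers were lower, with sums of 4108 to 7433 in MT and 8952 to 14260 in wild type, as were 8 of 9 fibroblast markers, with 3008 to 4331 in MT and 5995 to 8536 in wild type. Endothelial markers were lower in 2 of 7 cases, with 270.1 to 310.2 in MT and 271 to 359 in wild type, a share near that of all genes. Macrophage markers were higher in 5 of 9 cases, with 2326 to 2863 in MT and 1138 to 2022 in wild type. That count was 8 without wild-type array 4, and 4 without wild-type array 1 or 2 or MT array 3 or 4. Granulocyte markers were higher in 3 of 7 cases, with sums of 349.8 to 492 in MT and 175 to 189 in wild type, and T cell markers in 3 of 7, with 278 to 299.8 in MT and 231 to 247 in wild type. The T cell count was 1 at a threshold of 0.01 and 2 with probe sets averaged. B and plasma cell markers were higher in 1 of 5 cases, near the share of all genes (2 with the replicate block or without wild-type array 3, MT array 1 or MT array 4, and 3 without MT array 2), with 433 to 660 in MT and 209 to 273 in wild type. No marker was at 0, and 1 secretory marker was no higher than the bacterial controls on every array. The 3' minus 5' log2 difference, a sign of RNA quality, was 0.51 ± 0.09 in MT and 0.70 ± 0.17 in wild type for Gapdh (SD, n = 4 each; two-sided exact permutation p = 0.0857) and 0.73 ± 0.12 in MT and 0.91 ± 0.14 in wild type for Actb (exact permutation p = 0.114). The part of these shifts in the rise of the 36 genes was not tested.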

How the data were processed

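RNA of the ventral prostate was measured on 8 Affymetrix arrays (4 MT, 4 wild type). The authors deposited log2 values made with RMA, per the submitters' processing notes, with no version given in the sources used here. RMA normalizes by quantiles, so a shift shared by all genes is removed. Array medians ran from 6.21 to 6.23 and values from 2.47 to 14.3, and the number of arrays limits the precision.

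Of 22690 probe sets, 64 were controls, and 20380 had 1 gene symbol, 691 several and 1555 none in the platform annotation. Of the 20380, 20351 matched the reference gene table. The probe set with the highest mean stood for a gene, which left 12393 genes. Differences are MT minus wild type. They were fitted with limma (lmFit and eBayes, default prior, no covariate) in a two-sided test, Benjamini-Hochberg adjusted over all 12393 genes, at a threshold of 0.05. Other probe sets came from the same fit over 22626 probe sets. Every adjusted p comes from limma. The level bound was the highest of 12 redesigned bacterial controls on each array. "At least" folds set the MT mean against the mean over wild-type arrays of that bound or the gene's own value, whichever was higher. Summed levels are sums of values raised from the log2 scale.

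Groups came from the labels, which also number the arrays 1 to 4 in each. Deviations from group means correlated at 0.10, 0.18, 0.16 and 0.13 between same-numbered arrays, each over 0.1. The main fit did not carry these numbers, so its SEs and adjusted p-values take no account of such pairing. An alternative fit carried them as the replicate block. Further alternatives were array weights, another prior, averaged or unique-type probe sets, a level filter, renewed quantile normalization, median centring, a threshold of 0.01 and leaving out arrays. The pipeline was tested on simulated data with independent normal noise and no pairing of arrays. It recovered 76.3% of log2 changes of 0.5 and 97.2% of those of 1, so small changes can be missed. The members, lists and tests were chosen with earlier results of these data known. Named in full were the 3 largest rises of each role, every gene that fell or did not pass and every gene whose probe sets differed; of other lists, the 3 largest rises and all falls. Fits used limma 3.58.1 in R 4.3.3. Tables and plots used pandas 2.3.3 and matplotlib 3.10.9 under Python 3.11.15. Promoter sequences are from RefSeq (GRCm38.p6), not from the FVB strain.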

Additional observations from a re-analysis of the deposited data

Results flagged for a closer look

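Among 90 groups of 4 values (45 genes in MT and in wild type), 2 held a value far from the other 3, where chance gives about 1 in 20. Nusap1 read 6.59 on MT array 4, against 6.10 to 6.14 on the other MT arrays. Ndc80 read 4.15 on wild-type array 4, against 4.30 to 4.31 on the other wild-type arrays.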

How the results depend on the processing

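Across 18 settings, 34 of the 38 called genes kept their call and direction under every one that measured them; Top2a, Spc25, Pttg1 and Ndc80 lost it under at least 1, and Top2a alone of these changed sign. The replicate block changed no call among the 45 genes (36 higher, 2 lower; 2490 and 2721 of all genes). In the other lists it gave 14 higher spindle, centrosome and cytokinesis genes, 26 higher replication genes, 4 lower MuvB, MYB and E2F regulators and 2 higher B and plasma cell markers, and the other list counts did not change. Leaving out 1 array gave 36 to 37 higher and 1 to 2 lower, with medians of 0.83 to 0.91. The median was 0.68 with probe sets averaged, 0.69 over the 35 genes with unique-type probe sets, 1.05 over the 10 genes above the median level, of which 6 were higher, and 0.93 when MT array 2 and wild-type array 4 were left out together. The number lower was 1 under each of the last 3 and at a threshold of 0.01. The level filter used the mean over all 8 arrays, MT included. Mki67 (7.87 in MT, 5.44 in wild type) and Top2a (7.26 and 6.10) passed it only through their MT values. The median and count over those 10 genes are therefore partly set by the filter and are no check on the rise. Averaged probe sets turned Foxm1 to 0.15 (adjusted p = 0.0379) and Cdca3 to 0.33 (adjusted p = 0.00082), and unique-type probe sets turned Top2a to -0.0855. Kif2c was called higher with averaged probe sets (0.29, adjusted p = 0.0048) and with unique-type probe sets (0.60, adjusted p = 0.00167). With probe sets averaged, 39 of the 45 genes were higher. The cause of these changes was not tested. Signs near 0 also turned: Kif2c to -0.0013 with median centring, to -0.0127 without MT array 2 and to -0.0374 without both arrays, Foxm1 to 0.00311 without wild-type array 4 and to 0.0149 without both, and Ncaph to -0.0382 without wild-type array 1. Left out singly, arrays gave -0.0382 to 0.132 for Ncaph, -0.0127 to 0.0665 for Kif2c and -0.0813 to 0.00311 for Foxm1. Median centring called 2152 genes higher and 3109 lower. Levels near the bacterial controls limit what can be read for Cenpe, Nuf2, Kif20a, Ect2 and Cdc25c, and on 1 or 2 wild-type arrays for Melk, Kif11 and Bub1; against an older Phe control, which read 5.55 to 5.86, 26 of the 45 genes were no higher on every wild-type array.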
